A study of Komagataella phaffii with 26 samples.

Results

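In *Komagataella phaffii* X-33, 52 of 5040 measured genes had less mRNA 15 min after alkalinization of the medium than at time zero, and more mRNA than at time zero after 60 min, in both courses grown on glycerol. These members were chosen by their measured values. RPKM (the reads of a gene divided by its length in kilobases and by the size of the library) was taken as log2(RPKM + 1), averaged per group and set against time zero of the same course. A member had a mean RPKM of at least 5 over the 26 libraries, a log2 change of -0.4 or lower at 15 min and one of 0.6 or higher at 60 min, each in both glycerol courses. The early dip and the late increase on glycerol are thus a description of the choice and carry no test. The glucose course entered the choice only through the mean RPKM, and it served here as the test.

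All cells were wild-type X-33, a strain of a methylotrophic yeast, grown in YP medium with glycerol or glucose and then resuspended in fresh medium with the buffer TAPS. Cells on glycerol were moved to pH 8.0 (10 libraries) or pH 8.2 (8 libraries), and cells on glucose to pH 8.0 (8 libraries). Each course was sampled at 0, 15, 30 and 60 min, with 2 libraries per group, except for glycerol at pH 8.0 after 15 min, which had 4. Time zero was an aliquot at pH 5.5 collected at once. Since no culture at pH 5.5 was collected later, the effects of pH, fresh medium, handling and elapsed time cannot be told apart, nor can less mRNA per cell and fewer cells that express a gene. The paper sampled each stressed culture at 15, 30 and 60 min, so libraries of these times share cultures. The labels do not say which libraries share one, and the main fit treated all libraries as independent. The p-values therefore measure the spread between these libraries. The RPKM values rest on 16.3 to 20.4 M reads per library, and a member had 24 reads in the library where it was lowest (the median over members and libraries was 795.5 reads).

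The best described members encode chaperones, the proteins that help others fold. In the cytosol, the Hsp90 chaperone takes over client proteins from Hsp70 and works with co-chaperones that bring clients, brake or speed its ATPase, or isomerize prolines. In the endoplasmic reticulum (ER), the Hsp70 protein BiP, encoded by *KAR2*, pulls new chains through the Sec61 channel and folds them, calnexin holds glycoproteins, and vesicles with COPII coats take the folded cargo to the Golgi. In yeast the genes of the cytosolic group are classical targets of the heat shock factor, and those of the ER group of the unfolded protein response.

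On glycerol the median member was 0.68 log2 units below time zero at 15 min in the course to pH 8.0 and 0.80 below in the course to pH 8.2. At 60 min the medians were 0.93 and 1.07 above time zero. The change at 15 min ran from -2.22 to -0.40 at pH 8.0 and from -3.03 to -0.40 at pH 8.2, and that at 60 min from 0.62 to 2.81 and from 0.62 to 3.20. Taken alone, the dip in both glycerol courses was found in 504 of the 4966 genes that reached the mean RPKM (10.1%), and the increase in 483 (9.73%); 52 genes had both. Only the course to pH 8.0 or only that to pH 8.2 would have given 63 or 128 genes. At 60 min every library lay above both libraries of time zero for all 52 members in both courses, and at 15 min every library lay below them with 1 exception, *ARO9* at pH 8.2. These same libraries chose the members, so this separation largely follows from the choice. The share of all genes separated in this way was not counted on glycerol. Over all genes with the mean RPKM, the median change lay between -0.08 and 0.12 at 15, 30 and 60 min. Scaling the libraries by median ratios took away 0.12 of the change at 60 min and pH 8.2 and less than that elsewhere; all 52 members kept both directions on glycerol, but 34 genes then met the thresholds. The choice also leaned on single libraries. Among the runs without 1 library, the fewest genes met the thresholds without replicate 1 of time zero at pH 8.0.

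**Figure D1:**
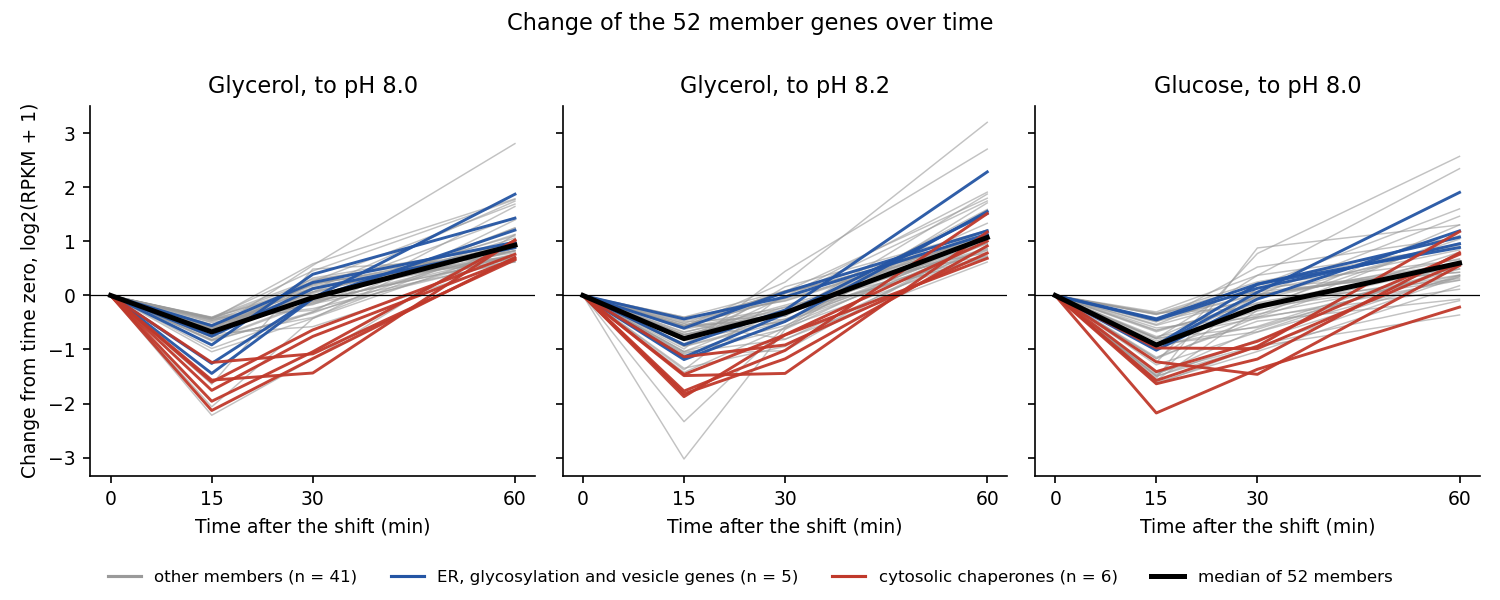
Change from time zero on the log2(RPKM + 1) scale (vertical axis) against time in min (horizontal axis) for each of the 52 members in the 3 courses. Coloured lines are single genes by list and the black line is the median, which is -0.68, -0.04 and 0.93 at 15, 30 and 60 min for glycerol at pH 8.0 and -0.92, -0.21 and 0.60 for glucose.

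On glucose, in libraries that did not choose the genes, the dip was found again in nearly all members. By limma with Benjamini-Hochberg adjustment over 5034 genes, 46 of 52 members fell at 15 min (adjusted p below 0.05), where 20.4% of all genes did. By the same test 0 members rose, also at an unadjusted p below 0.05, while 14.1% of all genes did. At 60 min 38 members rose above time zero (23.4% of all genes) and 0 fell (11.1% of all genes), also at an unadjusted p. The level at 60 min was higher than that at 15 min in 52 of 52 members (32.8% of all genes). The median member changed by -0.92 at 15 min and by 0.60 at 60 min.

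Both changes on glucose, lower at 15 min and higher at 60 min, passed the test in 34 members and in 138 genes of the whole table (2.74%). This count leaned on single libraries: it was lower without any 1 of the glucose libraries of 0, 15 or 60 min. It was lowest without a library of time zero. Such fits leave 1 library in a group. In library values, both libraries at 15 min lay below both at time zero for 52 members (41.1% of all genes), both at 60 min lay above both at time zero for 48 (50.2%), and both at 60 min lay above both at 15 min for 52 (54.1%). By the size used on glycerol, 46 members reached -0.4 at 15 min (13.1% of genes with the mean RPKM), 25 reached 0.6 at 60 min (7.53%), and 21 of the 34 genes that reached both sizes on glucose were members (0.685% of genes). With at least a 2-fold change asked for in both directions besides the test, 5 genes of the table passed on glucose. All 5 were members: *KAR2*, *CPR6*, *GCV1*, *ARO10* (C4R3I9) and C4QVJ1.

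**Figure D2:**
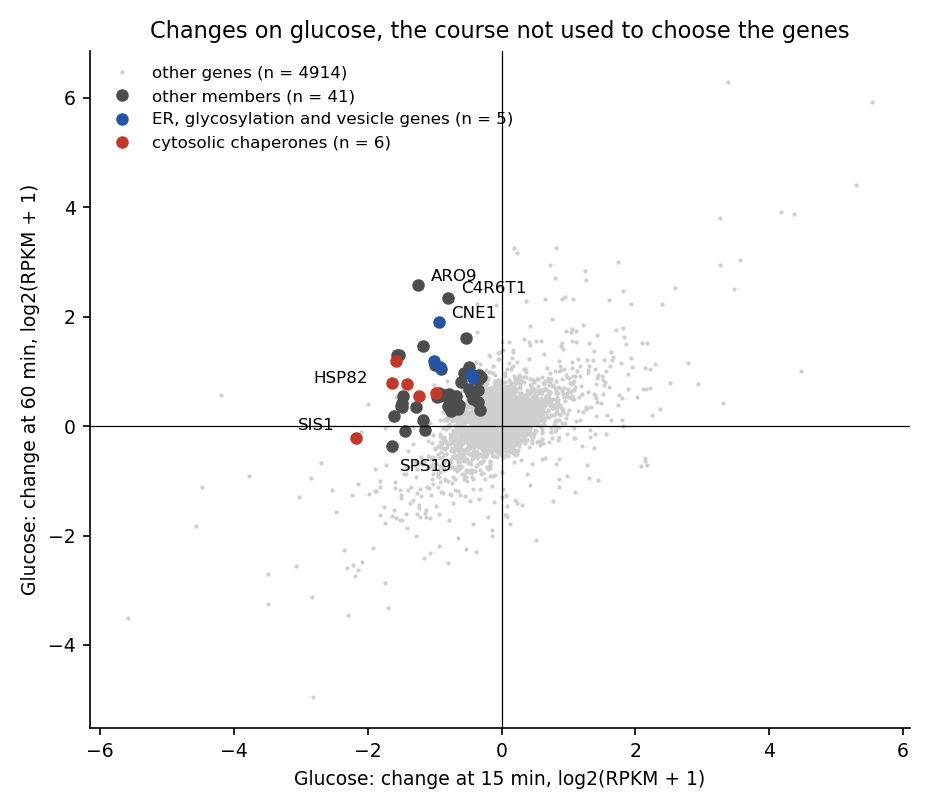
Log2 change on glucose at 15 min (horizontal axis) against that at 60 min (vertical axis), each from 2 libraries against 2 of time zero, for 4966 genes. Grey points are genes outside the set and larger points are members, all of which lie left of 0 at 15 min, while 48 of 52 lie above 0 at 60 min.

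Names and descriptions came from the authors' table of the genes that the study had called changed in these libraries, so the lists used here hold only such genes and are no independent evidence of a direction. It gave a description to 39 members and a gene name to 25, mostly that of the *Saccharomyces cerevisiae* match; 13 members have only a locus tag. Of the 12 cytosolic chaperone genes in the lists 6 are members, and of the 7 genes of ER import and folding 3. The same holds for 1 of 2 glycosylation genes, 1 of 1 for vesicles from ER to Golgi, 3 of 5 for breakdown of aromatic amino acids, 3 of 5 for RNA 3′ end processing and decay, 2 of 15 for peroxisomes and β-oxidation, and 1 of 12 for thiamine and biotin. The aromatic list counts *AMD2*, a putative amidase, and the RNA list counts *IME4*, a probable mRNA adenosine methyltransferase. Neither gene was shown here to act in the process that names its list. The remaining 32 members fall in no list.

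The cytosolic chaperones among the members all belong to the Hsp90 machinery or to Hsp70. They are *HSP82* (C4QXI5, Hsp90 itself), *STI1* (C4R0X7, which links Hsp70 to Hsp90), *AHA1* (C4R3R2, which activates the Hsp90 ATPase), *SBA1* (C4QXA1, the p23 co-chaperone), *CPR6* (C4R4X9, a cyclophilin that binds Hsp90) and *SIS1* (C4R2Q1, a J-protein of Hsp70). *HSP82* was the most abundant member, with a mean of 1839 RPKM. On glycerol moved to pH 8.0 it was at 2143 and 2787 RPKM at time zero, at 439, 567, 594 and 655 at 15 min, at 1087 in both libraries at 30 min, and at 4191 and 3777 at 60 min. At pH 8.2 the values were 2315 and 1835, then 732 and 465, then 1022 and 817, and then 3874 and 3914 RPKM. On glucose they were 2493 and 1967, then 770 and 659, then 1028 and 931, and at last 3592 and 4086 RPKM. In the 3 courses the libraries of 15 and 30 min were all below those of time zero and those of 60 min all above. On glucose *HSP82* fell by 1.63 ± 0.20 (SE, n = 2 against 2; limma, adjusted p = 3.04e-06) at 15 min and rose by 0.79 ± 0.20 at 60 min (limma, adjusted p = 0.00437); the latter call was lost without the time zero library of replicate 2 (adjusted p = 0.0756).

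*CPR6* had the widest swing of the group. It stood at 445 and 331 RPKM on glucose at time zero, at 132 and 125 at 15 min, at 211 and 188 at 30 min, and at 792 and 959 at 60 min. It fell by 1.57 ± 0.19 at 15 min (limma, adjusted p = 3.62e-06) and rose by 1.18 ± 0.19 at 60 min (limma, adjusted p = 0.000102), both on the log2 scale. *STI1* fell by 1.41 ± 0.19 and rose by 0.76 ± 0.19, *AHA1* (C4R3R2) fell by 1.23 ± 0.19 and rose by 0.55 ± 0.19, and *SBA1* fell by 0.97 ± 0.15 and rose by 0.60 ± 0.15 at the same times. Without the glucose time zero library of replicate 2, the rise at 60 min missed the threshold for *STI1* (limma, adjusted p = 0.0737), *SBA1* (0.0595) and *AHA1* (0.257). Leaving out replicate 2 of 60 min did the same for *SBA1* (0.058) and *AHA1* (0.185), and leaving out replicate 1 of 60 min for *AHA1* (0.0528), as did median-ratio scaling (0.0647).

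*SIS1* was the exception of the group on glucose. Its time zero there was at 485 and 449 RPKM, against 167, 314, 308 and 294 in the glycerol libraries of time zero. On glucose it fell to 119 and 88.8 RPKM at 15 min, and was at 180 and 181 at 30 min and at 380 and 425 at 60 min, which left both libraries below time zero. The change at 60 min was -0.22 ± 0.22 (limma, adjusted p = 0.489), while that from 15 to 60 min was 1.96 ± 0.22 (limma, adjusted p = 1.79e-06). On glycerol the levels at 60 min were 427 and 355 RPKM at pH 8.0 and 441 and 534 at pH 8.2. Set against 167 and 314 RPKM at time zero, the log2 change at pH 8.0 was 0.76, where the choice asked for 0.6. That change leaned on the lower of the 2 time zero libraries, so the increase of *SIS1* at pH 8.0 rests largely on 1 library. At 60 min the glucose libraries thus overlapped with those of glycerol at pH 8.0 and lay below both at pH 8.2. At time zero both glucose libraries lay above all those of glycerol.

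**Figure D3:**
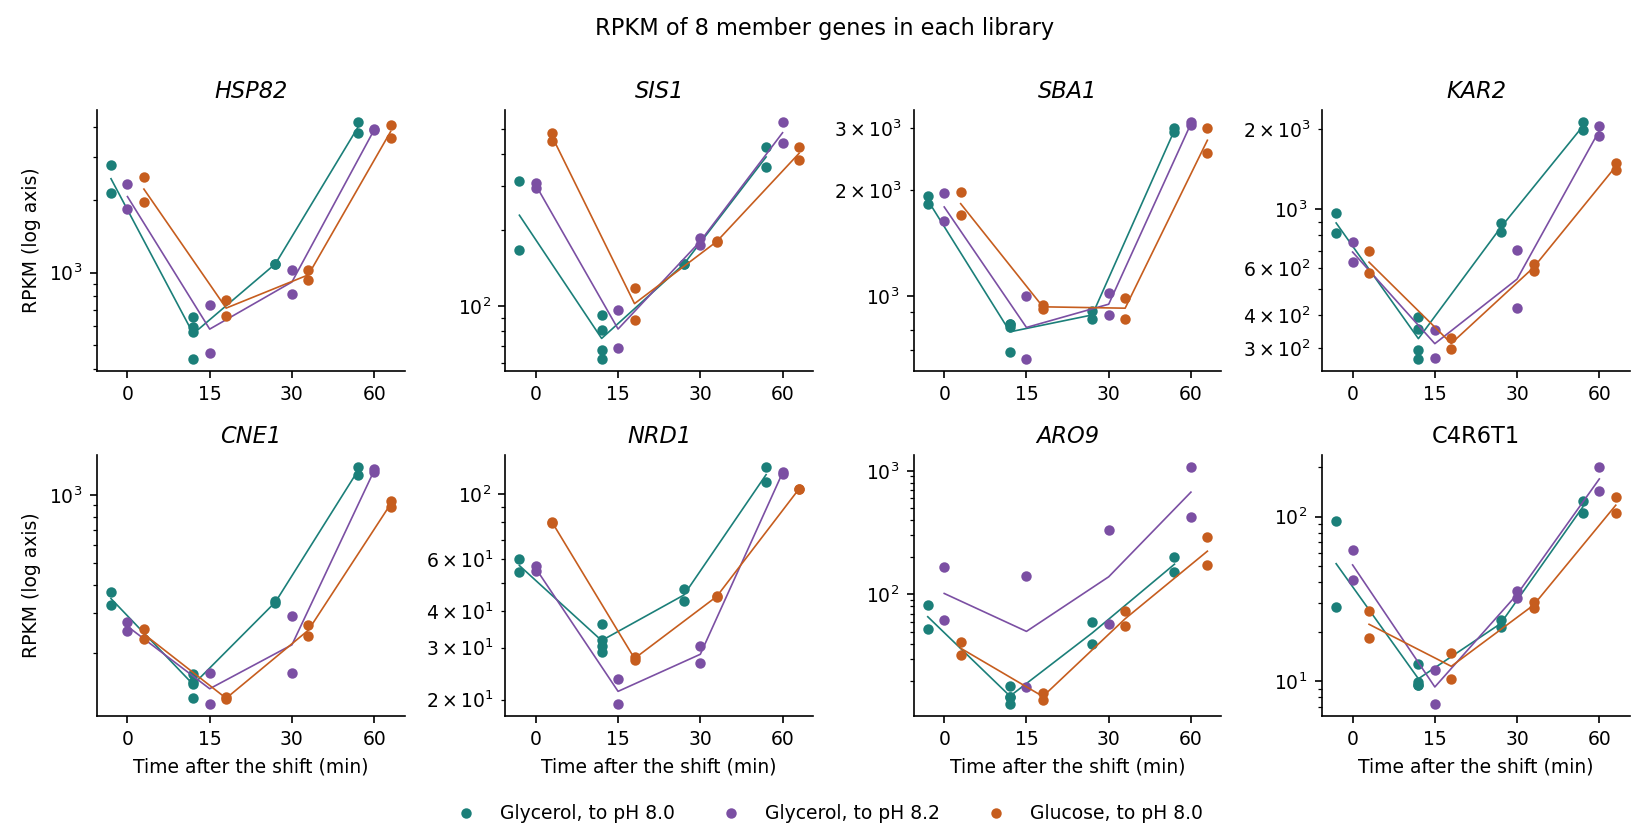
RPKM on a log axis (vertical) by time in min (horizontal, evenly spaced) for 8 members, with 1 point per library, 3 courses in colour and lines through the group means of log2 RPKM. *SIS1* starts highest on glucose (485 and 449 RPKM), *SBA1* stays low at 30 min, and the 2 libraries of *ARO9* at pH 8.2 differ at 15 min (17.8 and 142 RPKM).

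The other 6 cytosolic chaperone genes of the lists also had less mRNA at 15 min, and each missed the choice at 60 min. All 12 genes of the list fell on glucose at 15 min (20.4% of all genes) and all 12 at 30 min (14.6%). At 60 min 7 had risen (23.4% of all genes) and 1 (*HSP104*, the disaggregase) had fallen (11.1%). *SSA4* and *SSA3*, which encode cytosolic Hsp70 proteins, dipped further on glycerol than any member of the group: the log2 change at 15 min was -4.13, -3.78 and -4.19 for *SSA4* and -2.49, -2.25 and -1.999 for *SSA3* on glycerol at pH 8.0, at pH 8.2 and on glucose. At 60 min *SSA4* was at 0.52, 1.44 and 0.57, and *SSA3* at 0.57, 0.70 and 0.41, so both were left out by the threshold of 0.6 at pH 8.0 alone. *HSP104* was at -0.33, -0.16 and -0.91.

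The members of the secretory pathway are *KAR2* (C4QZS3, BiP), *CNE1* (C4R0B4, calnexin), C4R348 (a J-protein of the ER lumen), *ALG7* (C4R1K2, the first enzyme of the lipid-linked glycan of N-glycosylation) and *ERV29* (C4R076, a COPII cargo receptor). *KAR2* stood at 818 and 966 RPKM at time zero on glycerol moved to pH 8.0, at 274, 295, 355 and 395 at 15 min, at 820.5 and 889 at 30 min, and at 2130 and 1987 at 60 min. At pH 8.2 it was at 754 and 633, then 353 and 277, then 702 and 426, and then 1896 and 2066 RPKM. On glucose it was at 697 and 575, then 328 and 299, then 622 and 587, and at last 1409 and 1494 RPKM. The libraries of 15 min were the lowest and those of 60 min the highest in each course, and those of 30 min overlapped with time zero in each course. On glucose *KAR2* fell by 1.01 ± 0.19 at 15 min (limma, adjusted p = 0.00035) and rose by 1.20 ± 0.19 at 60 min (limma, adjusted p = 6.64e-05).

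*CNE1* reached the highest level relative to time zero in this group, at 887 and 940 RPKM on glucose after 60 min against 255 and 231 at time zero and 125 and 128 at 15 min. It fell by 0.94 ± 0.18 and then rose by 1.91 ± 0.18 over time zero (limma, adjusted p = 0.000493 and 1.37e-07). On glycerol its change at 60 min was 1.87 at pH 8.0 and 2.29 at pH 8.2. *ALG7* fell by 0.92 ± 0.20 and rose by 1.08 ± 0.20 on glucose, C4R348 fell by 0.45 ± 0.13 and rose by 0.96 ± 0.13, and *ERV29* fell by 0.43 ± 0.14 and rose by 0.89 ± 0.14. The dip was less certain than the rise. That of *ERV29* (limma, adjusted p = 0.019) missed the threshold without any 1 of the 4 libraries compared (0.0507 to 0.111), and the dip of C4R348 without replicate 1 of time zero (0.147).

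The ER genes of the lists that are not members rose on glucose at 60 min as well, and all 7 genes of ER import and folding did (23.4% of all genes). *SEC61*, the channel itself, had log2 changes of -0.64, -0.32 and -0.17 at 15 min on glycerol at pH 8.0, at pH 8.2 and on glucose, and of 1.23, 1.49 and 1.29 at 60 min, and it missed the choice by its dip at pH 8.2. *ROT1* was higher at 15 min (0.75, 1.07 and 0.90). *HAC1*, the transcription factor of the unfolded protein response, showed no dip: it was at 0.87, 1.30 and 1.04 at 15 min and at 2.65, 2.55 and 2.06 at 30 min. Its rise on glucose passed the test at 15 min (limma, adjusted p = 0.015) and again at 30 and 60 min.

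The 30 min libraries entered the choice of members only through the mean RPKM, and on glycerol they are set here against time zero libraries that the choice did use, so the glycerol values are a description. The 6 cytosolic members were still below time zero in each course, with medians of -1.06, -0.97 and -1.08 for glycerol at pH 8.0, at pH 8.2 and glucose. The 5 secretory members had medians of 0.12, -0.27 and 0.13, and the other 41 members of 0.04, -0.31 and -0.21. On glucose the fall at 30 min passed the test in 20 of 52 members, where 14.6% of all genes passed, and it did so in 6 of 6 cytosolic, 0 of 5 secretory and 14 of 41 other members. A rise at 30 min passed in 3 members, where 18.6% of all genes passed: *ARO10* (C4R3I9), C4R0R1 and PAS_c121_0002. In a fit of only the 8 glucose libraries 7 members rose, and under median-ratio scaling PAS_c121_0002 missed the threshold (limma, adjusted p = 0.0512). The difference between the lists itself was not tested. The number of members that fell at 30 min was 13 without replicate 1 of time zero, and the number that rose was 0 without replicate 2 of time zero, 0 without replicate 1 of 30 min, 1 without replicate 2 of 30 min and 2 without replicate 1 of time zero.

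**Figure D4:**
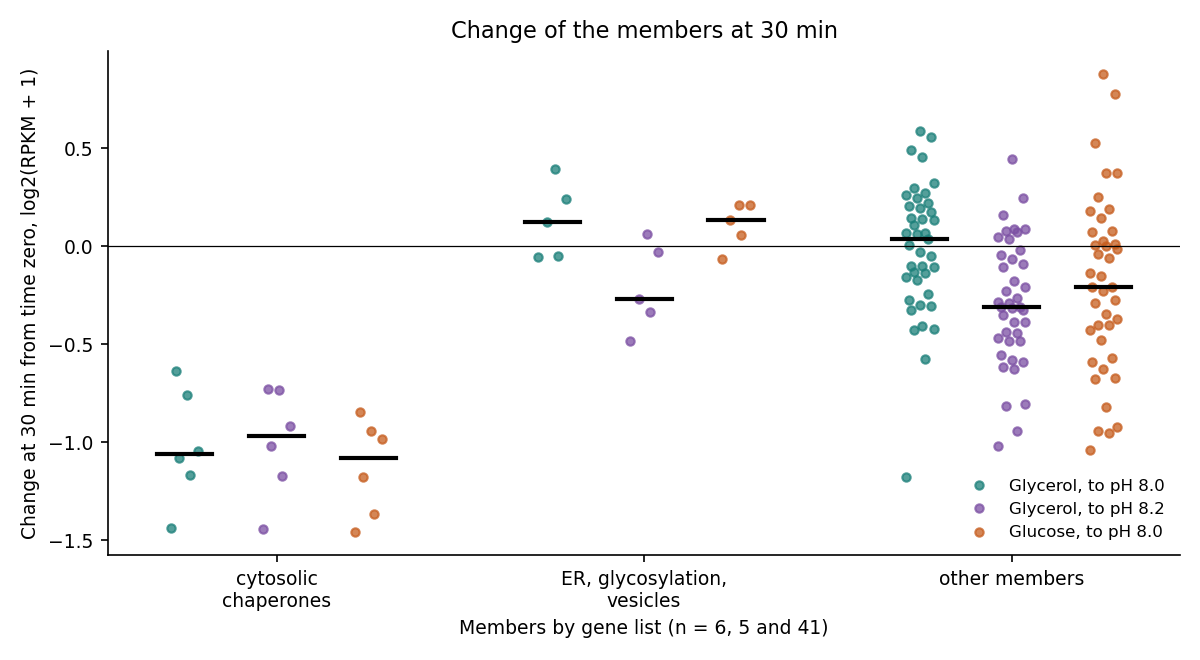
Log2 change at 30 min from time zero (vertical axis) for each member, by gene list (horizontal axis, n = 6, 5 and 41) and course (colour), with the median as a black bar. The cytosolic chaperones lie between -1.46 and -0.64 in all courses, and the ER, glycosylation and vesicle genes between -0.48 and 0.39.

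On glucose *HSP82*, *SBA1* and *AHA1* (C4R3R2) were not higher at 30 than at 15 min by the test. The change of *HSP82* in this step was 0.46 ± 0.20 (limma, adjusted p = 0.11), although its libraries of 30 min lay above those of 15 min. *SBA1* was at 944 and 918 RPKM at 15 min and at 988 and 861 at 30 min, and *AHA1* was at 336 and 314 and then at 297 and 258. Their change from 15 to 30 min was -0.01 ± 0.15 (limma, adjusted p = 0.965) and -0.23 ± 0.19 (limma, adjusted p = 0.416), and that from 30 to 60 min was 1.58 ± 0.15 and 2.01 ± 0.19 (limma, adjusted p = 6.26e-07 and 7.47e-07). On glycerol moved to pH 8.0 both libraries of 30 min were above the 4 of 15 min, with *SBA1* at 907 and 859 RPKM against 694 to 830.1 and *AHA1* at 214 and 205 against 175 to 202. There the log2 change of *AHA1* went only from -1.57 at 15 min to -1.44 at 30 min. At pH 8.2 that of *AHA1* went from -1.48 to -1.44 and that of *SBA1* from -1.14 to -0.92. A difference between carbon sources was not tested. The comparisons of 15 with 30 min and of 30 with 60 min were chosen after the values were seen. Of all members 38 rose from 15 to 30 min on glucose (13.5% of all genes) and 45 from 30 to 60 min (12.1% of all genes). Among the cytosolic members 3 of 6 rose in the first step and 6 of 6 in the second, and 5 of 5 secretory members rose in both. The count of the first step was 19 without replicate 2 of 15 min, 19 without replicate 1 of 30 min and 24 without replicate 2 of 30 min. In the median member 39.1, 24.1 and 40.2% of the way from the level of 15 min to that of 60 min had been covered at 30 min on glycerol at pH 8.0, at pH 8.2 and on glucose. At 30 min 27, 42 and 33 of the 52 members were below time zero in the same courses. Of the 4966 genes with the mean RPKM, 2093, 2183 and 2219 were below it.

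Among the genes for the breakdown of aromatic amino acids, *ARO9* (C4R6Z7, an aromatic aminotransferase) and *ARO10* (C4R3I9, a phenylpyruvate decarboxylase) carry out consecutive steps of the Ehrlich pathway, which turns these amino acids into fusel alcohols in *S. cerevisiae*. *ARO9* on glucose was at 41.3 and 32.6 RPKM at time zero, at 15.8 and 14.1 at 15 min, at 72.9 and 55.4 at 30 min, and at 289 and 173 at 60 min. On glycerol moved to pH 8.0 it was at 52.8 and 82.4, then between 12.99 and 18.1 in 4 libraries, then at 40.0 and 59.4, and at last at 153 and 202 RPKM. In the course to pH 8.2 replicate 2 stood apart, at 168, 142, 333 and 1066 RPKM over the 4 times against 61.8, 17.8, 57.8 and 423 in replicate 1. This spread enters the shared error, and the fall on glucose at 15 min did not pass the test (-1.24 ± 0.74, limma, adjusted p = 0.204) although the libraries did not overlap. The rise at 60 min was 2.57 ± 0.74 (limma, adjusted p = 0.0106), and it missed the threshold without replicate 2 of time zero (0.0737) or replicate 1 of 60 min (0.0913).

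*ARO10* (C4R3I9) had the lowest change of all members at 15 min, -3.03 at pH 8.2, where it was at 116 and 100.2 RPKM at time zero and at 15.1 and 10.1 at 15 min. It had passed its time zero level by 30 min on glucose, at 111 and 92.0 RPKM against 70.1 and 42.4 (0.88 ± 0.29, limma, adjusted p = 0.0261), and was at 164 and 113 at 60 min. The call at 30 min was lost without replicate 2 of time zero (0.305) or without either library of 30 min (0.16 and 0.0523), and that at 60 min without replicate 2 of time zero (0.0526). A second gene named *ARO10*, C4R7I0, is not a member: it dipped by more on glycerol (-3.22 and -4.55) but was at 0.15 and 0.76 at 60 min. *AMD2* (C4R437), a putative amidase, fell by 0.81 ± 0.14 on glucose at 15 min (limma, adjusted p = 0.00012). Its rise at 60 min was 0.37 ± 0.14 (limma, adjusted p = 0.0398), which missed the threshold under median-ratio scaling (0.0648) and without 3 of the 4 libraries compared, those of replicate 2 of time zero (0.26) and of replicates 1 and 2 of 60 min (0.167 and 0.0972).

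Members linked to RNA were *NRD1* (C4QXB6), whose *S. cerevisiae* product ends transcription of noncoding RNA, *PCF11* (C4R407), a cleavage factor of mRNA 3′ ends, and *IME4* (C4R0G1), a probable mRNA adenosine methyltransferase. *NRD1* had small differences between replicates on glucose, with 80.5 and 79.4 RPKM at time zero, 27.2 and 28.0 at 15 min, 44.6 and 45.1 at 30 min, and 104 and 104 at 60 min. It fell by 1.502 ± 0.10 (limma, adjusted p = 1.36e-09), was still 0.82 lower at 30 min, and rose by 0.38 ± 0.10 at 60 min (limma, adjusted p = 0.00708). *IME4* fell by 1.47 ± 0.12 and rose by 0.54 ± 0.12. *PCF11* fell by 1.17 ± 0.16, and its change at 60 min was 0.12 ± 0.16 (limma, adjusted p = 0.616). All 5 genes of this list fell on glucose at 15 min, *HRP1* and *PUF3* included, where 20.4% of all genes did. The list holds only genes that the study had called changed in these libraries.

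Averaged over both glycerol courses, the swing from 15 to 60 min was largest for 2 genes of unknown function, C4R6T1 (3.70 on the log2 scale) and C4QVJ1 (3.62). Within a course the order differed: at pH 8.2 *ARO10* (C4R3I9) had the largest swing (4.15, against 4.05 for C4R6T1), and at pH 8.0 that of *ARO9* (3.46) was above that of C4R6T1 (3.34). C4R6T1 was at 28.4 and 94.4 RPKM at time zero on glycerol moved to pH 8.0, between 9.58 and 12.7 in the 4 libraries of 15 min, at 21.5 and 23.5 at 30 min, and at 124 and 106 at 60 min. Its libraries of time zero differed more than those of 15 min. The change of C4R6T1 at 60 min and pH 8.0, 1.13, thus leaned on the lower time zero library, at 28.4 RPKM against 94.4. On glucose it was at 26.7 and 18.5, then 14.8 and 10.3, then 30.1 and 28.0, and at last 105 and 131 RPKM. The change there was -0.80 ± 0.36 at 15 min (limma, adjusted p = 0.0902), and the rise at 60 min was 2.35 ± 0.36 (limma, adjusted p = 4.39e-05). C4QVJ1 was at 5.53 and 6.11 RPKM at time zero on glycerol moved to pH 8.0, and at 41.6 and 52.6 at 60 min, and it was at 4.32 and 5.51 and at 45.5 and 62.2 at pH 8.2. Its changes of 2.81 and 3.20 at 60 min were the highest of all members. On glucose it started at 10.7 and 10.2 RPKM, fell by 1.57 ± 0.19 and rose by 1.31 ± 0.19 (limma, adjusted p = 2.78e-06 and 2.65e-05).

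*GCV1* (C4R277), whose *S. cerevisiae* namesake is a subunit of glycine decarboxylase, was at 18.1 and 14.5 RPKM on glucose at time zero, at 8.03 and 5.45 at 15 min, at 19.1 and 13.8 at 30 min, and at 45.7 and 47.3 at 60 min. It fell by 1.17 ± 0.30 and rose by 1.47 ± 0.30 (limma, adjusted p = 0.00528 and 0.000911). The fall missed the threshold without replicate 1 of time zero (0.0572) or replicate 2 of 15 min (0.0798). *HOT1* (C4QW90), named after an *S. cerevisiae* transcription factor of the osmotic stress response, fell by 0.99 ± 0.18 and rose by 1.11 ± 0.18 on glucose. *BIO2* (C4QV32, biotin synthase) fell by 1.61 ± 0.22 at 15 min, and its change at 60 min was 0.18 ± 0.22 (limma, adjusted p = 0.55), while on glycerol it was 1.75 and 1.80 above time zero. C4R0R1, a peroxin, fell by 0.49 ± 0.14 at 15 min, rose by 0.53 ± 0.14 at 30 min and by 1.07 ± 0.14 at 60 min. The fall of C4R0R1 was lost without replicate 1 of time zero (0.159) or replicate 2 of 15 min (0.0816), and its rise at 30 min without replicate 2 of time zero (0.124) or replicate 1 of 30 min (0.0813).

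For 14 members a rise over time zero at 60 min did not pass the test on glucose, and 12 of them had fallen at 15 min. They are *BIO2*, *PCF11*, *PDK1*, *SIS1*, *SPS19* and *STL1* (C4QVV9), with 7 genes of unknown function and PAS_chr4_0834. In 4 of them, *SIS1*, *SPS19*, *STL1* and C4QY50, the mean at 60 min was below time zero. *STL1*, a glycerol and proton symporter that glucose shuts off in *S. cerevisiae*, was at 15.1 and 12.7 RPKM on glucose at time zero, at 4.26 and 4.72 at 15 min, and at 12.5 and 13.2 at 60 min. Its time zero on glycerol was lower, at 8.61 and 8.55 RPKM before the shift to pH 8.0. *SPS19* (C4R653), an auxiliary enzyme of β-oxidation, was at 19.9 and 18.5 RPKM on glucose at time zero and at 13.999 and 15.5 at 60 min, and *PDK1* (C4R8U4), a mitochondrial protein kinase, at 15.2 and 11.9 and at 17.1 and 17.8. Over all members, time zero on glucose minus the mean of both glycerol courses had a median of 0.05 and ran from -1.17 to 0.92. A smaller change at 60 min and a higher time zero cannot be told apart in these values. The 6 members whose fall at 15 min did not pass on glucose were *ARO9*, C4R6T1, C4QZV5, C4QYW4, PAS_c121_0002 and PAS_chr1-1_0489, with changes of -1.24 to -0.31.

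The 13 members with a locus tag only had log2 changes of -0.80 to -0.40 at 15 min on glycerol. PAS_chr1-4_0113 was the most abundant of them with a mean of 541 RPKM, and it was at 513 and 454 RPKM on glucose at time zero, at 338 and 299 at 15 min, at 381 and 350 at 30 min, and at 801 and 886 at 60 min. It fell by 0.60 ± 0.09 and rose by 0.80 ± 0.09 (limma, adjusted p = 4.55e-05 and 1.54e-06), and like the cytosolic chaperones it was still lower at 30 min, by 0.40 ± 0.09 (limma, adjusted p = 0.00213).

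The thresholds passed through a continuous range of values. Just inside the dip at pH 8.0 lay PAS_chr1-1_0146 at -0.40, and just outside lay C4R1G6 at -0.39 and C4R3C3 at -0.37. For the late increase at pH 8.0, C4R0R1 at 0.62 was inside and PAS_chr2-1_0240 at 0.59 and *SSA3* at 0.57 were outside. At pH 8.2, PAS_chr4_0260 at -0.40 was inside the dip and *SEC61* at -0.32 outside, and *PDK1* at 0.62 was inside the increase and *FKS1* at 0.51 outside. By mean RPKM, C4QYW4 at 5.84 was inside, and *FAR1* (4.76), *THI13* (4.50) and *ATO2* (C4QWY3, 3.98) met the changes but were outside.

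The members were spread over the genome (assembly ASM2700v1), with 20 of 1538 genes on chromosome 1, 14 of 1333 on chromosome 2, 10 of 1198 on chromosome 3 and 8 of 971 on chromosome 4. Their median gene length was 1315.5 bases against 1197.5 for all genes, and their median mean RPKM was 43.8 against 53.8. In 4 of the 5036 pairs of neighbouring genes both were members. *SBA1* and YLR224W on chromosome 1 (1490397 to 1491148 and 1491368 to 1493215) are divergent with 219 bases between them, and *CNE1* and PAS_chr2-1_0323 on chromosome 2 (602354 to 604051 and 604352 to 604924) are divergent with 300 bases between them. *SET6* and *SIS1* on chromosome 2 lie on the same strand 200 bases apart, and *AMD2* and C4R438 on chromosome 3 lie on the same strand 152 bases apart. On glycerol the choice fixed the direction of both genes in each pair. On glucose all 52 members were below time zero at 15 min and 48 above it at 60 min, so a shared direction is not particular to a pair. In the first pair YLR224W fell by 0.67 ± 0.13 and rose by 0.56 ± 0.13 on glucose (limma, adjusted p = 0.00061 and 0.00303). The partners of the second pair differed in level. *CNE1* had a mean of 439 RPKM and PAS_chr2-1_0323 one of 65.4, and their changes at 60 min on glucose were 1.91 ± 0.18 and 1.04 ± 0.11. The gene models of 3 members (PAS_FragB_0051, PAS_chr4_0480 and PAS_chr4_0834) overlap the end of a convergent neighbour by 6 to 14 bases, and the libraries were made without strand information, so reads in those bases cannot be assigned.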

How the data were processed

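Poly-A RNA of 26 libraries was sequenced as non-directional libraries. The authors mapped the reads with Bowtie2 to the GS115 genome, and SeqMonk gave the RPKM deposited for 5040 genes, on a linear scale. A second deposited table, with fold changes and p-values the authors obtained with DESeq2, was used only for names and descriptions. Each RPKM times gene length is a whole number of steps of 1 read (within 0.01 read for 99.94% or more of the values of a library), which gave the depth. A count model was not fitted, since the unit is RPKM.

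Values were taken as log2(RPKM + 1), a scale that understates changes of low genes. limma 3.58.1 (R 4.3.3) fitted the 12 group means over all 26 libraries (14 residual degrees of freedom, trend on mean expression), for the 5034 genes that reached an RPKM of 1 in 2 or more libraries. For each comparison p-values had the Benjamini-Hochberg adjustment, and an adjusted p below 0.05 was called. The SE is that of the moderated fit. The 2-fold criterion added a log2 change of at least 1 and an unadjusted p below 0.01. Tested on simulated data over 5034 genes, 83.2% of genes changed 1.5-fold and 96.4% changed 2-fold were found at 15 min on glucose, and 81.8 and 96.6% at 60 min. Of the calls in these simulations 5.3% at 15 min and 5.0% at 60 min were false. The simulations changed fewer genes than were called on glucose and drew independent errors. Libraries that share a culture were not simulated.

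The members and lists were chosen with earlier results of these data known. Genes named are those in a list, the 15 with the largest mean swing from 15 to 60 min on glycerol, those past both tests on glucose, those at a threshold and neighbours; the remaining names were chosen after their values were seen. Other pseudocounts, filters, scalings, thresholds, time zero sets, libraries and a replicate block were tried. All gene models match ASM2700v1 in RefSeq. No sequences are shown.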

Additional observations from a re-analysis of the deposited data

Results flagged for a closer look

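In the 4 libraries of glycerol at pH 8.0 after 15 min, 1 library stood apart for 2 of the 24 members examined, where chance gives about 1 in 20 groups. For C4R6T1 the gap of the highest library was 0.876 of the range, and for *SBA1* that of the lowest was 0.901. Some members moved in opposite directions in every library of 2 courses, and none of these differences was tested. At 30 min C4R6T1 was at 0.37 on glucose and at -1.18 and -0.58 on glycerol at pH 8.0 and 8.2, and C4QVJ1 at -0.27 on glucose and at 0.56 and 0.25 on glycerol. *ARO10* (C4R3I9) was at 0.88 on glucose and -0.63 on glycerol at pH 8.2. *IME4* was at -0.62 on glycerol at pH 8.2 and at -0.63 on glucose, but at 0.26 on glycerol at pH 8.0. At 60 min, where the choice of members fixed the sign on glycerol, *SIS1* was at -0.22 on glucose and 0.76 on glycerol at pH 8.0, and *SPS19* at -0.36 and 0.95.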

How the results depend on the processing

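The number of members was 34 under median-ratio scaling, 28 with thresholds of -0.5 and 0.7 and 80 with -0.3 and 0.5. It was 36 to 55 with other pseudocounts, no minimum RPKM or all 4 glycerol libraries as time zero (43, of which 38 were among the 52), and 39 to 55 without 1 library. With the 2-fold criterion, 19 members fell on glucose at 15 min, 4 at 30 min and 0 rose at 30 min, 13 rose at 60 min, 5 did both, 7 rose from 15 to 30 min and 24 from 30 to 60 min. In a fit of only the 8 glucose libraries 7 members rose at 30 min. Without 1 library, 36 to 43 members fell at 15 min, 26 to 38 rose at 60 min, 18 to 30 did both, 13 to 17 fell and 0 to 2 rose at 30 min, 51 to 52 rose from 15 to 60 min, 19 to 36 from 15 to 30 min and 37 to 40 from 30 to 60 min. The cause of these moves was not tested, except that fewer libraries give fewer degrees of freedom.

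Of 159 calls of single members on glucose, none reversed under any alternative run. Under median-ratio scaling 8 missed the threshold, with pseudocount 0.1 1 did, and over all fits without 1 library 83 of 636 did. The labels do not say that a replicate number on glucose marks a culture. Deviations of same-numbered libraries correlated at 0.11 to 0.35 between times. With the replicate block, 49 members fell at 15 min, 40 rose at 60 min and 38 did both, 20 fell and 4 rose at 30 min, 52 rose from 15 to 60 min, and 1 call was lost (C4QY50 at 30 min, limma, adjusted p = 0.0503).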
